A study of Homo sapiens with 24 samples.

Results

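The genes described here are 9 targets of the transcription factor p53 that halt the cell cycle or feed back on p53 and its signals: CDKN1A, BTG2, GADD45A, CCNG1, MDM2, PPM1D, PLK2, PLK3 and GDF15. They were selected by name, as the gene spots of the array that carry these gene names, with every probe. They are 9 of the 30982 gene names on the array, and 9 of the 22929 gene names that had a probe well above background and were tested. CDKN1A and MDM2 have 2 probes each. For them the brightest tested probe stands for the gene, and the other probe is given beside it where it was above background.

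After DNA damage p53 is stabilised and raises the transcription of genes that stop the cell cycle, among them CDKN1A, which encodes the cyclin-dependent kinase inhibitor p21. It also raises its own brakes, MDM2, a ubiquitin ligase that marks p53 for degradation, and PPM1D, a phosphatase that acts on p53 and on kinases of the damage response.

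Cells of the human glioblastoma line U87 MG received proton therapy (PT), alone or with 10 µM Si306, an inhibitor of SRC kinases, and their RNA was taken 24 h later and put on whole-genome arrays with 2 dyes. In U87 2 Gy and U87 10 Gy, RNA of irradiated cells was labelled with Cy5 and RNA of untreated cells with Cy3. In the configurations U87 Si306 + 2 Gy and, likewise, U87 Si306 + 10 Gy, RNA of cells given Si306 and PT was labelled with Cy5, and RNA of cells given PT alone at the same dose with Cy3. A log2 ratio of Cy5 to Cy3 therefore stands for PT against no treatment on the arrays of PT alone, and for the addition of Si306 to PT on the others. The dyes were not swapped on any array, so a dye effect of a probe and a treatment effect cannot be told apart within a configuration.

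The 24 deposited scans are labelled as 6 replicates of each of the 4 configurations. Per the file headers they are 3 scans of each of 8 arrays on 2 slides. The configuration of an array was taken as the label that most of its 3 scans carry. This gives 2 arrays per configuration, with PT alone on slide 1 and the combined treatment on slide 2. By this rule, 2 scans go against their labels. Replicate 5 of U87 2 Gy sits on an array of U87 10 Gy and gave a log2 ratio of 1.19 for CDKN1A, where the other scans of its label gave 0.37 to 0.40. Replicate 2 of U87 10 Gy sits on an array of U87 2 Gy and gave 0.36 for CDKN1A, where the others gave 1.18 to 1.21. Both were left out, and the other 22 scans were averaged by array, which gives n = 2 arrays for every value per configuration. The labels call each scan a biological replicate, and the files leave unknown whether the 2 arrays of a configuration hold RNA from different cultures. The p-values therefore measure the spread between arrays only. Over the 24 scans, the share of probes well above background was 56.2% to 65.5% in Cy3 and 62.4% to 73.9% in Cy5. Of the 29 member spots per scan, 19 were left out over all scans together, and 0 were marked as saturated.

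Promoters were searched for the motif of p53, the factor by which these genes were chosen. Sequences from RefSeq (GRCh38.p14) were matched by symbol for 8 of the 9 genes, with 12 start sites between them, and GADD45A is named only. In the 250 bases before each start, the half-site of p53 was searched, a motif of 10 letters that is its own reverse complement, so that 1 search covers both strands. An exact half-site occurred in 5.57% of 35114 promoters and, among the members, in that of PLK2, beginning 132 bases before the start. A pair of exact half-sites with at most 13 bases between them occurred in 0.0256% of promoters and in no member. With up to 2 mismatches over the pair, 6.64% of promoters and 2 members had a match: CCNG1, with 9 bases between the half-sites, and MDM2 at its downstream starts, with 0 bases between them. This mismatch limit was chosen after several limits had been tried. In the sequences of PLK2 (minus strand, chr5:58460087-58460336), CCNG1 (plus strand, chr5:163437321-163437570) and MDM2 (plus strand, chr12:68808767-68809016), capitals mark the half-sites found. Those of CDKN1A (plus strand, chr6:36678464-36678713) and BTG2 (plus strand, chr1:203305269-203305518) are shown because both genes at least doubled at 10 Gy and had no match by these criteria, as was true of PPM1D and GDF15, which are not printed. A match describes letters in this window and is not evidence of binding.
PLK2: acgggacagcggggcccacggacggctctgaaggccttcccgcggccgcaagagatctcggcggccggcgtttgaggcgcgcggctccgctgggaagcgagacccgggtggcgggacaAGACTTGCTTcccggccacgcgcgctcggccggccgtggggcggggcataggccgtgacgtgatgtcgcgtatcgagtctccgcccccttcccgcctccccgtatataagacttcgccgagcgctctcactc
CCNG1: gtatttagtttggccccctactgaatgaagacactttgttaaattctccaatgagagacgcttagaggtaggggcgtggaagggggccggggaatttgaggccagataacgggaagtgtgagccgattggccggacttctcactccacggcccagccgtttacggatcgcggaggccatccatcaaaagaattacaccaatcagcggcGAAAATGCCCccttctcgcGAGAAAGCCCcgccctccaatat
MDM2: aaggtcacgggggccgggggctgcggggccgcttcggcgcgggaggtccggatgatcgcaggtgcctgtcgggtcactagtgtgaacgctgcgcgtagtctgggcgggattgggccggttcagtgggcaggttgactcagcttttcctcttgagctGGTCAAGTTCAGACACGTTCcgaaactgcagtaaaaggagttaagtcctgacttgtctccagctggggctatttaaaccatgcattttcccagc
CDKN1A: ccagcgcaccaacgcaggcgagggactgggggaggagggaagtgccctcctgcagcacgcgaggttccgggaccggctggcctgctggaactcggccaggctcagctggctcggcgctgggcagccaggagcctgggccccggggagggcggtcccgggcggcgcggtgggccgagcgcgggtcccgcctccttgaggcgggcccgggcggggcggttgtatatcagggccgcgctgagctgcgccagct
BTG2: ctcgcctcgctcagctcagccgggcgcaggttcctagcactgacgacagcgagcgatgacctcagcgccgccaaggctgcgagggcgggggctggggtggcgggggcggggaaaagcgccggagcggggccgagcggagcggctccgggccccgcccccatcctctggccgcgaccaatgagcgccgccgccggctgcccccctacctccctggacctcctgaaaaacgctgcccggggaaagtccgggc

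The level of a gene in each dye, as the log2 of its normalised intensity, set the slides apart before any treatment was compared. RNA labelled as U87 MG after PT alone was present on both slides, in Cy5 on slide 1 and in Cy3 on slide 2. At 10 Gy, the level of GDF15 was 17.45 on slide 1 and 8.27 on slide 2, a 577-fold difference. At 2 Gy, the levels of GDF15 were 16.82 and 8.24, which is 383-fold. CDKN1A lay at 14.18 and 10.01 at 10 Gy (18-fold) and at 13.18 and 10.01 at 2 Gy (8.95-fold). BTG2, GADD45A, MDM2 and CCNG1 were also higher on slide 1, by 1.40 to 3.58 on the log2 scale over both doses. PPM1D differed by -0.57 at 2 Gy and by 0.27 at 10 Gy, PLK2 by 0.00 and -0.73, and PLK3 by -1.11 and -0.68. PLK3 was thus the only member that was lower on slide 1 at both doses. Among all genes, 26.8% at 2 Gy and 27.1% at 10 Gy differed at least 2-fold between these RNAs of equal label, and 3.19% and 3.35% at least 8-fold. Spearman's rho across genes was 0.982 to 0.997 between channels of the same slide (56 pairs) and 0.808 to 0.826 between channels of different slides (64 pairs), a description in which genes are not independent replicates.

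Markers of cell types differed between the slides as well. VIM, CD44, NES and FN1, which glioma cells of mesenchymal type express, were well above background on both. In PT 2 Gy, CD44 lay at 15.19 on slide 1 and 12.86 on slide 2. NES was higher on slide 2, at 9.15 and 10.23. So were VIM (16.82 and 17.16) and FN1 (14.52 and 14.91) by their brightest probes, while the dimmer probes of FN1 were higher on slide 1. SOX2, a neural stem cell factor, was above background on slide 1 by 1 probe on 1 array only, and lay at 8.60 by its brightest probe in PT 2 Gy on slide 2, against 6.21 on slide 1. EPCAM, an epithelial surface protein, had a level of 6.36 in PT 2 Gy on slide 1 and 10.89 on slide 2. PECAM1, of endothelial cells, lay at 6.22 on slide 1, not above background, and at 9.11 on slide 2. GFAP, of astrocytes, lay at 6.90 and 8.44 by its brightest probe, and OLIG2, of the oligodendrocyte lineage, was above background on slide 1 only, weakly. MTAP and PTPRC were not above background on any array. CDKN2A, which is deleted in U87 MG on record together with CDKN2B and MTAP, had 1 of 2 probes above background on every array, at 9.06 on slide 1 and 8.27 on slide 2 in PT 2 Gy. CD14, CD3E and ALB were at weak levels. CDKN2B had 1 of 2 probes above background on some arrays of either slide, and its other probe on none. Both arrays of U87 Si306 + 10 Gy were among them in both dyes, with a level of 6.78 in PT 10 Gy. Of the markers of other cells, neither of glioma nor deleted in U87 MG, 5 were tested (limma). All 5 rose with Si306 at either dose (median 0.20 at 2 Gy and 0.26 at 10 Gy), where 38.2% and 33.9% of all genes rose. With PT alone, 2 of the 5 rose at 2 Gy and 1 fell at 10 Gy. The part of these differences of markers in the results was not tested. By its label, the RNA of PT alone was without Si306 on both slides. Between the changes with PT and the changes with Si306, the parts of slide, cells and Si306 cannot be told apart. These changes are therefore not added.

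**Figure D1:**
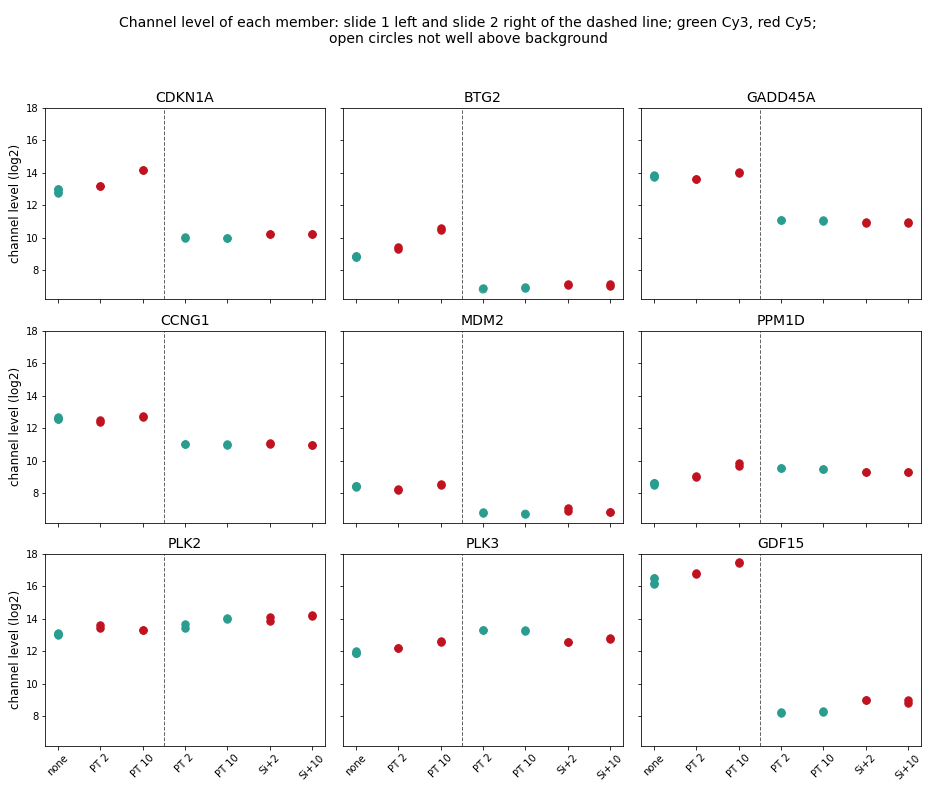
Channel level (log2 of normalised intensity, vertical axis) of the 9 genes on every array, by RNA (horizontal axis: none for untreated, PT with its dose in Gy, Si for Si306 and PT), Cy3 in green and Cy5 in red, slide 1 left and slide 2 right of the dashed line. GDF15 lies at 16.82 for PT 2 Gy on slide 1 and at 8.24 for RNA of the same label on slide 2.

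The arrays of PT alone ask what protons did to these genes after 24 h. All 9 genes passed an adjusted p of 0.05 in U87 10 Gy (limma), where 58.3% of all tested genes did. All 9 rose, against 31.6% of genes that rose and 26.7% that fell, and 4 of them reached 2-fold, against 0.955% of genes in either direction: BTG2, GDF15, PPM1D and CDKN1A. In U87 2 Gy, 9 of 9 passed, where 56.3% of all tested genes did. Of these, 6 rose and 3 fell (8 and 0 with median centring, used in place of loess, which moved the median of all genes to 0.24 and called 79.5% of them), against 31.5% and 24.8% of all genes, and 0 reached 2-fold, against 0.737% of genes. Median centring put GDF15 (1.05) and PLK2 (1.04) past 2-fold at 2 Gy, and PLK3 (1.19) at 10 Gy. Under other settings PPM1D, CDKN1A and GDF15 fell below 2-fold at 10 Gy, to 0.78, 0.87 and 0.90 at the lowest, while BTG2 stayed at 1.17 or more. These counts thus depend on the scaling and on other settings. The median log2 fold change of the members was 0.30 at 2 Gy and 0.67 at 10 Gy, where that of all genes was 0.02 and 0.01. Since most genes of the array passed the test, the size of a change tells more of a member than its call. Above the 90th percentile of all genes lay 4 members at 2 Gy and 5 at 10 Gy.

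These counts depend on a rule that was chosen after seeing the data. Spots whose local background exceeded 10 times the median of the scan, at most 49 per scan beyond the marked outliers, were left out before the background correction. With these spots kept, 5 members were called at 2 Gy and 8 at 10 Gy, where 22.3% and 19.5% of all genes were. On array 2 of U87 10 Gy, the log2 ratios of BTG2 in the 3 scans were 1.63, 1.58 and 1.54 with the rule, and 1.63, 0.59 and 0.64 without it. The first of the 3 scans carries the label U87 2 Gy and was left out of the fit, so both scans used fell without the rule. The scanner software's own log ratio, made by a different background correction, gave 1.77, 1.76 and 1.76 for BTG2 in the 3 scans, and called 9 members at 2 Gy and 8 at 10 Gy, where 54.4% and 53.9% of all genes were called. A fit of all 24 scans under their labels, which also takes scans in place of array means with the array as a random block, gave 6 members at either dose, where 57.7% and 58.6% of all genes were called, without GADD45A, CCNG1 and MDM2.

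**Figure D2:**
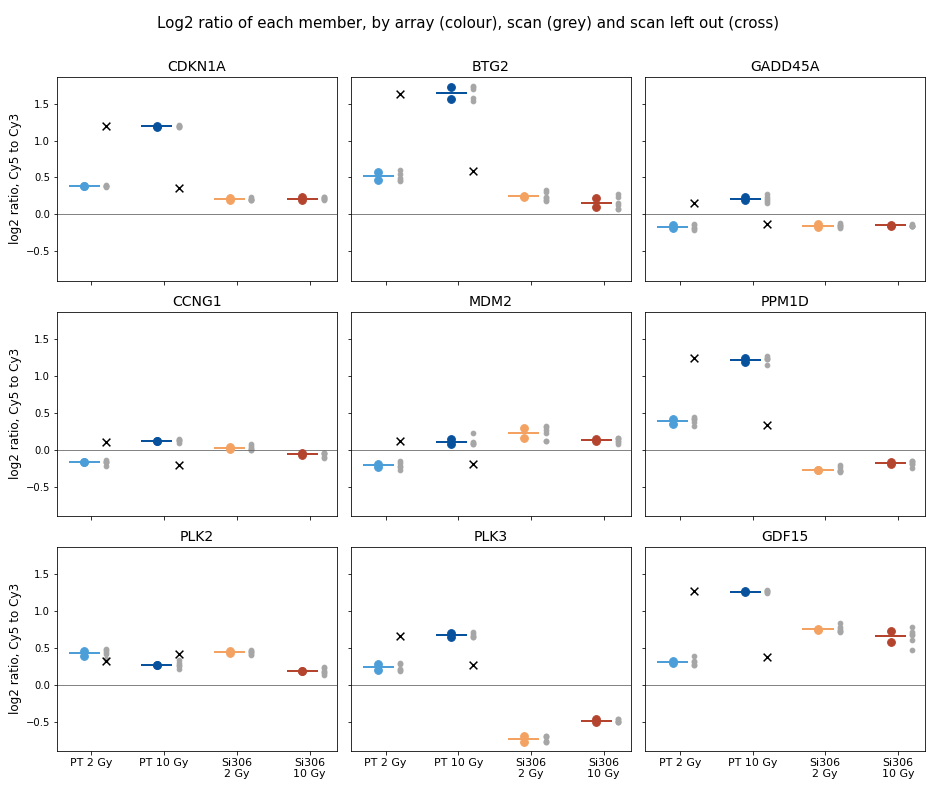
Log2 ratio of Cy5 to Cy3 (vertical axis) of the 9 genes in the 4 configurations (horizontal axis). Coloured points are the arrays, lines their mean, grey points the scans used, and crosses the 2 scans left out. CDKN1A, BTG2, PPM1D and GDF15 lie above 1 on both arrays of U87 10 Gy, and the crosses lie near the values of the other dose.

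Among the genes of arrest, CDKN1A at least doubled at 10 Gy. Its Cy5 signal, in scanner units, was 15100 and 13000 on the arrays of U87 2 Gy and 32000 and 26500 on those of U87 10 Gy, and its Cy3 signal, from untreated cells, was 3580 to 6100. The log2 ratios were 0.39 and 0.38 at 2 Gy and 1.18 and 1.20 at 10 Gy. Both arrays of either dose lay above 0, and the doses did not overlap. CDKN1A rose 1.30-fold at 2 Gy (log2 fold change 0.38, SE 0.03, adjusted p = 1.41e-06) and 2.29-fold at 10 Gy (1.19, SE 0.03, adjusted p = 2.21e-10), where it was the gene with rank 143 from the top. Its other probe gave 0.65 and 1.33. The rise of CDKN1A was called under all 22 other settings at both doses, at 0.36 to 0.99 for 2 Gy and 0.87 to 1.75 for 10 Gy.

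BTG2, an antiproliferative cofactor of mRNA deadenylation, changed most of the members at 10 Gy. Its log2 ratios were 0.47 and 0.58 on the arrays of U87 2 Gy, and 1.72 and 1.56 on those of U87 10 Gy. The arrays of the 2 doses lay about 1 log2 unit apart. BTG2 rose 1.44-fold (SE 0.05 on the log2 scale, adjusted p = 2.76e-06) and 3.12-fold (adjusted p = 4.4e-10). At 10 Gy it was called under all 22 other settings, at 1.17 to 2.08, and at 2 Gy the call was lost with the spots of high local background kept, at 0.35 (adjusted p = 0.405).

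GADD45A and CCNG1 did not share the size of these changes. GADD45A, which binds PCNA and stress kinases and restrains the cycle at G2, gave log2 ratios of -0.19 and -0.14 at 2 Gy and of 0.20 and 0.23 at 10 Gy. CCNG1, cyclin G1, which recruits a phosphatase to MDM2, gave -0.17 on both arrays at 2 Gy and 0.12 on both at 10 Gy. Both genes were thus below 0 at the lower dose and above 0 at the higher, each on 2 of 2 arrays. At 2 Gy GADD45A fell by 0.16 (adjusted p = 0.00114) and CCNG1 by 0.17 (adjusted p = 0.000626), which flipped to 0.47 and 0.42 under median centring. At 10 Gy they rose by 0.21 (adjusted p = 0.000153) and 0.12 (adjusted p = 0.00594), or 0.78 and 0.65 with median centring. Without array 1 of U87 10 Gy, CCNG1 stayed at 0.12, with an adjusted p of 0.0534.

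Of the feedback genes, PPM1D rose at both doses, while the values of MDM2 depended on the setting. PPM1D gave log2 ratios of 0.42 and 0.34 at 2 Gy and of 1.24 and 1.18 at 10 Gy. It rose 1.30-fold (log2 fold change 0.38, adjusted p = 3.02e-06) and 2.32-fold (1.21, adjusted p = 4.4e-10), and the value at 2 Gy was 0.24 (adjusted p = 0.552) with the spots of high local background kept and 0.78 with median centring. At 10 Gy, PPM1D was called under all 22 other settings, at 0.78 to 1.62. MDM2 was dim, with Cy5 signals of 373 to 604 on slide 1 over local backgrounds of 50.5 to 57.8. Its brightest probe gave -0.23 and -0.19 at 2 Gy and 0.14 and 0.07 at 10 Gy. MDM2 fell by 0.21 at 2 Gy (adjusted p = 0.000906), which became 0.12 with median centring (adjusted p = 0.105) and -0.08 with the spots of high local background kept (adjusted p = 0.193), and rose by 0.10 at 10 Gy (adjusted p = 0.0394). That last call was lost under 12 of 22 other settings, at up to an adjusted p of 0.956, among them 5 of 9 fits that left out arrays, with 0.07 without array 1 of U87 10 Gy and 0.14 without array 2. MDM2 was -0.38 at 2 Gy by the scanner's log ratio (adjusted p = 0.03) and 0.45 at 10 Gy with median centring. The other probe of MDM2, which lies on 10 spots of every array, gave 0.05 (adjusted p = 0.204) and 0.26 (adjusted p = 3.21e-05).

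The polo-like kinases PLK2 and PLK3, which respond to stress and damage, went with PT in different measure. PLK2 gave 0.46 and 0.39 on the arrays at 2 Gy and 0.27 on both at 10 Gy. PLK3 gave 0.20 and 0.28 at 2 Gy and 0.65 and 0.70 at 10 Gy. PLK2 was the only member whose ratio was higher at the lower dose. PLK2 rose 1.34-fold (adjusted p = 1e-06) and 1.21-fold (adjusted p = 2.8e-05), and PLK3 1.18-fold (adjusted p = 0.000142) and 1.59-fold (adjusted p = 4.82e-08). Both were called under all 22 other settings, and median centring gave 1.04 and 0.81 for PLK2 and 0.82 and 1.19 for PLK3.

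GDF15, a secreted cytokine of the TGF-beta superfamily, gave a strong signal on slide 1. Its Cy3 signal from untreated cells was 49800 to 65800, and its Cy5 signal was 208000 and 195000 at 2 Gy and 315000 and 283000 at 10 Gy. The log2 ratios were 0.32 and 0.29 at 2 Gy and 1.25 and 1.27 at 10 Gy. GDF15 rose 1.23-fold (adjusted p = 4.86e-05) and 2.40-fold (adjusted p = 8.97e-10), and with the spots of high local background kept the rise at 2 Gy was 0.18 (adjusted p = 0.111). Over all other settings GDF15 lay at 0.18 to 1.05 for 2 Gy and 0.90 to 1.93 for 10 Gy.

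The dose difference had its own test on slide 1, where a dye effect equal on all arrays cancels. All 9 members passed in U87 10 Gy minus U87 2 Gy (limma), where 21.2% of all tested genes did, 8 of them higher and 1 lower at 10 Gy, against 10.2% and 11% of genes. At least 2-fold was reached by 1 member, BTG2, and by 0.0393% of genes. The median difference of the members was 0.43, that of all genes 0.00, and 8 of 9 members lay above the 90th percentile. BTG2 differed by 1.12 (SE 0.06, adjusted p = 6.13e-06) and had rank 7 of all genes from the top. GDF15 differed by 0.96, PPM1D by 0.83 and CDKN1A by 0.81, with adjusted p between 3.77e-06 and 6.13e-06. PLK3 (0.43), GADD45A (0.38), MDM2 (0.31) and CCNG1 (0.29) followed, with adjusted p of 0.00289 at most. The other probes gave 0.68 for CDKN1A (adjusted p = 6.63e-05) and 0.21 for MDM2 (adjusted p = 0.00768). PLK2 was lower at the higher dose, with -0.15 (adjusted p = 0.0353), a call that was lost under 14 of 22 other settings. In this order the 4 members from BTG2 to CDKN1A lay well above the rest, while neighbours such as PPM1D and CDKN1A, or MDM2 and CCNG1, differed by less than their standard errors. With the spots of high local background kept, 5 members passed, where 3.45% of all genes did, and BTG2 (0.82, adjusted p = 0.305), PPM1D (0.54, adjusted p = 0.476), MDM2 and PLK2 were lost. Median centring and the scanner's log ratio each called 7 members, where 7.14% and 15.5% of all genes passed, the first without CCNG1 (0.23, adjusted p = 0.187), the second without MDM2 (0.39, adjusted p = 0.154), and both without PLK2. With all 24 scans under their labels and the array as a random block, the difference was 0.22 for BTG2 and 0.16 for CDKN1A, 0 members and 0 genes passed in limma, and 2 members and 2165 of 22929 genes (9.44%) had an unadjusted p under 0.05.

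**Figure D3:**
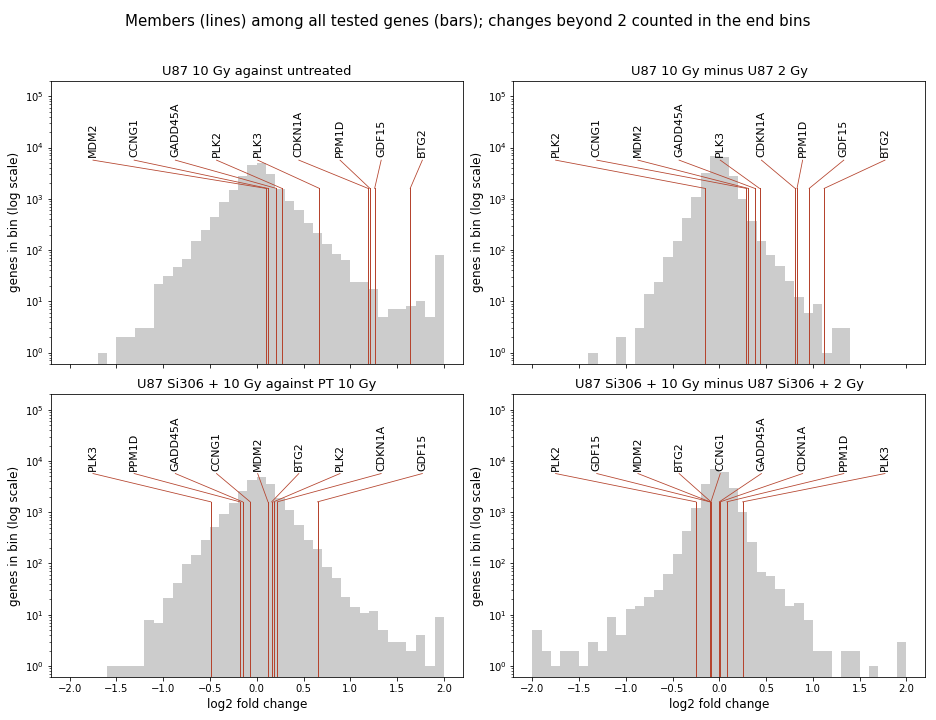
Number of tested genes (log axis) by log2 fold change in bins, with the 9 members as red lines, for U87 10 Gy, its difference from U87 2 Gy, U87 Si306 + 10 Gy, and its difference from U87 Si306 + 2 Gy. BTG2 at 1.64 and GDF15 at 1.26 lie in the right tail of U87 10 Gy, with ranks 99 and 129 of all genes from the top. In U87 Si306 + 10 Gy the members lie between -0.49 and 0.65.

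RNA labelled as PT alone on slide 2 did not hold this dose difference. Between the arrays of 10 and 2 Gy, the level of CDKN1A differed by 1.00 in the PT RNA of slide 1 and by -0.01 in the PT RNA of slide 2. BTG2 differed by 1.15 and 0.09, PPM1D by 0.76 and -0.07, and GDF15 by 0.63 and 0.03. The slide 2 value of BTG2 tells little, since its levels there were near background, at 6.85 and 6.93. Its Cy3 was well above background on 1 of 2 arrays at 2 Gy. Untreated RNA on slide 1, which should not depend on dose, differed by 0.19 for CDKN1A and -0.33 for GDF15 between the same arrays, a yardstick for such differences. PLK2 was the exception on slide 2, with a level 0.50 higher at 10 Gy, where slide 1 gave -0.24. The SD of this difference over all genes was 0.181 on slide 1 and 0.112 on slide 2. These levels are a description without a test, since RNA of each dose lay on its own arrays.

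The arrays of slide 2 ask what Si306 added to PT. In U87 Si306 + 2 Gy, 8 of 9 members passed (limma), where 65.8% of all tested genes did, with 5 up and 3 down (8 and 0 with median centring, with 87% of all genes called), against 38.2% and 27.7% of genes, and 0 at 2-fold, against 0.707%. In U87 Si306 + 10 Gy, 8 of 9 passed, where 61% of all tested genes did, with 5 up and 3 down (6 and 0 with median centring, with 66% of all genes called), against 33.9% and 27.1% of genes, and 0 at 2-fold, against 0.362%. Median centring put PLK2 (1.57) and GDF15 (1.28) past 2-fold with Si306 at 2 Gy. The members' median was 0.21 and 0.12, that of all genes 0.04 and 0.02, and 2 and 1 members lay above the 90th percentile. CCNG1 was the member that passed at neither dose, with 0.02 (adjusted p = 0.521) and -0.07 (adjusted p = 0.0869), but median centring gave 0.88 (adjusted p = 2.02e-14) and 0.36 (adjusted p = 1.99e-05), and the scanner's log ratio -0.09 at 10 Gy (adjusted p = 0.0235). With the spots of high local background kept, 4 members passed at 2 Gy and 3 at 10 Gy, where 27% and 19.1% of all genes did. In the fit of all 24 scans with the array as a random block, 5 and 4 members passed, where 59.7% and 54.3% of all genes did. CDKN1A, BTG2 and PPM1D did not pass there at either dose, while their values stayed the same (0.21 and 0.22 for CDKN1A). No scan of slide 2 had another label. The fit shares 1 estimate of the spread over all 4 configurations, which includes the 2 scans of another label on slide 1. The part of this in the lost calls was not tested.

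GDF15 rose and PLK3 fell when Si306 was added, though the fall of PLK3 turned with median centring. GDF15 was dim on slide 2, with Cy3 signals of 191 to 218, and gave log2 ratios of 0.74 and 0.76 at 2 Gy and of 0.73 and 0.58 at 10 Gy. PLK3, with Cy3 signals of 5650 to 6260, gave -0.77 and -0.70 at 2 Gy and -0.47 and -0.50 at 10 Gy. All 4 arrays lay above 0 for GDF15 and below 0 for PLK3. GDF15 rose 1.69-fold (SE 0.04 on the log2 scale, adjusted p = 4.62e-08) and 1.57-fold (adjusted p = 1.64e-07). With the spots of high local background kept, GDF15 gave 0.35 (adjusted p = 0.00904) and 0.18 (adjusted p = 0.135). PLK3 fell by 0.73 and 0.49 (adjusted p = 3e-08 at 2 Gy, 6.65e-07 at 10 Gy), though median centring, under which the median of all genes was 0.40 and 0.17, put it at 0.31 and 0.06.

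Other members changed less with Si306. PLK2 gave 0.45 and 0.43 at 2 Gy and 0.18 and 0.19 at 10 Gy, with adjusted p of 6.36e-07 and 0.000503, and it was called under all 22 other settings, at 0.42 to 1.57 and 0.17 to 0.81, the highest with median centring. CDKN1A gave 0.22 and 0.20 at 2 Gy and 0.23 and 0.20 at 10 Gy, a rise of 0.21 (adjusted p = 0.00013) and 0.22 (adjusted p = 0.000103), with 0.10 to 0.97 and 0.13 to 0.61 over the other settings. Its other probe gave 0.00 and 0.04, with Cy3 not well above background on slide 2, so no change is read from it, nor from the other probe of MDM2, above background in neither dye there. BTG2 rose by 0.24 (adjusted p = 0.000727) and 0.16 (adjusted p = 0.0115) and MDM2 by 0.22 (adjusted p = 0.000508) and 0.12 (adjusted p = 0.0211). Both were dim there: Cy3 of BTG2 was well above background on 1 of 2 arrays at 2 Gy, and Cy3 of MDM2 on 1 of 2 at 10 Gy. With the spots of high local background kept, neither passed at either dose, at 0.05 and 0.01 for BTG2 and 0.03 and 0.01 for MDM2. The scanner's log ratio gave 0.69 and 0.51 for BTG2 and 0.39 and 0.34 for MDM2. Without array 1 of U87 Si306 + 10 Gy, the value of BTG2 at 10 Gy was 0.10 (adjusted p = 0.238) and that of MDM2 was 0.14 (adjusted p = 0.088). Without array 2, that of MDM2 was 0.11 (adjusted p = 0.173). Median centring gave 0.11 (adjusted p = 0.143) and 0.06 (adjusted p = 0.482) for MDM2 at the lower and higher dose, and 0.15 for BTG2 at the higher (adjusted p = 0.054).

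PPM1D and GADD45A were lower with Si306. PPM1D gave -0.27 on both arrays at 2 Gy and -0.20 and -0.17 at 10 Gy. GADD45A gave -0.17 and -0.13 at 2 Gy and -0.14 and -0.15 at 10 Gy. All 4 arrays of each gene lay below 0. PPM1D fell by 0.27 (adjusted p = 3.76e-05) and 0.18 (adjusted p = 0.000672), and GADD45A fell by 0.15 at both doses (adjusted p = 0.00153 and 0.00204), and median centring turned these 4 values to 0.42, 0.16, 0.70 and 0.28. Keeping the spots of high local background, neither gene passed, at adjusted p of 0.0813 to 1.

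The effect of Si306 at 10 Gy against 2 Gy was tested as a difference on slide 2. Of the members, 2 passed (limma), where 21.8% of all tested genes did, with 1 up and 1 down, against 9.43% and 12.4% of genes, and 0 at 2-fold, against 0.157%. The median was -0.09 for the members and -0.01 for all genes, and 1 member lay above the 90th percentile. PLK2 rose less with Si306 at the higher dose, with a difference of -0.25 (SE 0.05, adjusted p = 0.00367). PLK3 fell less, by a difference of 0.25 (SE 0.05, adjusted p = 0.0064), which median centring turned to -0.26. Leaving out array 1 of U87 Si306 + 2 Gy gave 0.21 for PLK3 (adjusted p = 0.0554), and leaving out array 1 of U87 Si306 + 10 Gy gave 0.23 (adjusted p = 0.0506), with 1 member left in each case. For CDKN1A the difference was 0.01 (95% interval -0.08 to 0.11) and for BTG2 -0.09 (-0.23 to 0.06). These intervals cannot be set against the dose difference of PT alone, whose ratios are against untreated cells and not against PT. Cy3 of BTG2 was also well above background on only 1 of 2 arrays of U87 Si306 + 2 Gy. Median centring gave -0.37 for CDKN1A (adjusted p = 0.00175). Keeping the spots of high background, 1 member passed, where 1.19% of all genes did, and with median centring 7 passed, where 64.7% of all genes did.

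The change with PT was also set against the change with Si306 at the same dose, a contrast that spans the slides. In U87 2 Gy minus U87 Si306 + 2 Gy, 7 members passed (limma), where 60.1% of all tested genes did, with 4 higher and 3 lower, against 28.6% and 31.5%, and 0 at 2-fold, against 2.42%. In U87 10 Gy minus U87 Si306 + 10 Gy, 7 passed, where 59.3% did, all 7 higher, against 28.9% higher and 30.4% lower, and 3 at 2-fold, against 2.14%: BTG2, PPM1D and PLK3. The medians were -0.01 and 0.61, and those of all genes -0.02 and -0.01. BTG2 differed by 0.28 and 1.48, PPM1D by 0.65 and 1.40, PLK3 by 0.97 and 1.16, and CDKN1A by 0.18 and 0.98. GDF15 differed by -0.45 at 2 Gy and 0.61 at 10 Gy, each with an adjusted p of 2.84e-05 or less. The value of GDF15 at 2 Gy was -0.17 (adjusted p = 0.258) with the spots of high local background kept, and all 24 scans with the random block gave -0.08 (adjusted p = 0.728) and 0.25 (adjusted p = 0.214). MDM2 differed by -0.43 at 2 Gy (adjusted p = 4.82e-05), and by 0.01 with median centring, and had -0.02 at 10 Gy (adjusted p = 0.828), or 0.40 with median centring. The other probes of MDM2 and CDKN1A were not well above background in Cy3 on slide 2, so no contrast is read from them. CDKN1A at 2 Gy was 0.01 with median centring (adjusted p = 0.908), PLK2 was -0.53 (adjusted p = 1.38e-05) and GADD45A -0.23 (adjusted p = 0.0345). CCNG1 differed by -0.20 and 0.19 and GADD45A by -0.01 and 0.36, while PLK2 passed at neither dose, with -0.01 (adjusted p = 0.847) and 0.09 (adjusted p = 0.132). The value of BTG2 at 2 Gy was -0.12 (adjusted p = 0.267) by the scanner's log ratio. Keeping the spots of high local background let 3 and 4 members pass, where 26.2% and 20.8% of all genes did. BTG2 then had 0.30 (adjusted p = 0.638) and 1.15 (adjusted p = 0.0522), and PPM1D 0.38 (adjusted p = 0.43) and 0.83 (adjusted p = 0.0897).

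Lists of other genes of the pathway and of the cycle were counted beside the members, without a test of a list. Their falls depend on the scaling, as those of the members do, and counts with median centring are given where most of a list turned. Of all genes, 31.5% rose and 24.8% fell with PT at 2 Gy, 31.6% and 26.7% at 10 Gy, 38.2% and 27.7% with Si306 at 2 Gy, and 33.9% and 27.1% at 10 Gy. Median centring called 79.5%, 78.2%, 87% and 66% of all genes in this order. At 10 Gy of PT alone, 11 of 13 p53 targets of cell death rose and 1 fell (median 0.37), with BBC3 at 2.79 and FAS at 1.10 the highest and PMAIP1 at -0.32 the lowest. Of 13 p53 targets of repair and metabolism, 12 rose and 0 fell (median 0.49), with FDXR at 1.15 and TRIAP1 at 1.08 the highest. Among 15 genes of G2 and mitosis that p21 is known to repress, 13 fell and 2 rose (median -0.50), or 8 and 5 with median centring, with TOP2A and CCNA2 both at -0.79. At 2 Gy the same lists had 7 up and 4 down, 9 up and 2 down, and 2 up and 12 down, their medians being 0.11, 0.18 and -0.29, and for the last list median centring gave 8 up and 2 down. With the spots of high local background kept, 8, 9 and 10 genes of these 3 lists were called at 10 Gy and 6 of each at 2 Gy. That setting called 19.5% of all genes at 10 Gy and 22.3% at 2 Gy. The G1 list held PCNA, the replication clamp, which rose by 0.80 at 2 Gy and 1.54 at 10 Gy, with 8 of 13 genes up at either dose and 2 and 3 down.

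With Si306 added, these lists did not follow 1 direction. Of the death targets 5 rose and 4 fell at 2 Gy, while 7 rose and 4 fell at 10 Gy, and BBC3 was the lowest of them at -0.55 and -0.64. The repair and metabolic targets had 8 up and 4 down, and 7 up and 3 down. Of the genes of G2 and mitosis 12 fell and 0 rose at 2 Gy, while 9 fell and 2 rose at 10 Gy, and with median centring 13 and 10 rose and 0 fell, with CENPF lowest at -0.82 and -0.67. Of 13 genes of G1, 10 fell at 2 Gy and 9 at 10 Gy, and 1 rose, where median centring gave 1 and 2 down and 11 and 6 up, with E2F1 at -0.66 and -0.75. Of 10 genes of the ATF4 stress response, which can also raise GDF15, 5 and 8 rose and 2 and 1 fell with PT at 2 and 10 Gy, and 7 and 6 rose and 2 and 1 fell with Si306, with DDIT3 at 0.33, 0.72, 0.77 and 0.37 in this order. Of 12 immediate early genes, 8 and 4 rose and 4 and 5 fell with PT, and 7 and 6 rose and 2 and 2 fell with Si306, with FOS at -0.86 and -1.60 with PT and 2.07 and 0.13 with Si306.

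**Figure D4:**
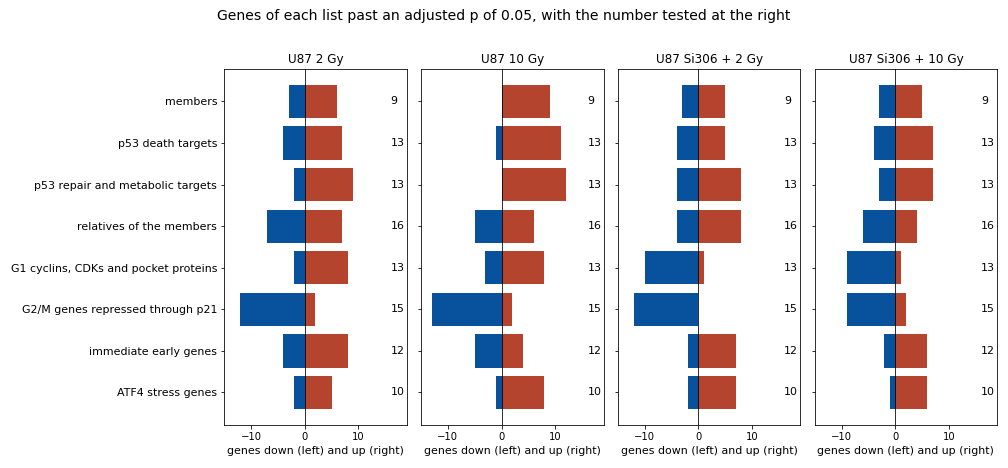
Number of genes in each list with an adjusted p under 0.05 (horizontal axis, down to the left in blue and up to the right in red) in the 4 configurations, with the number tested at the right. All 9 members rose in U87 10 Gy, where 13 of 15 genes of G2 and mitosis fell (8 with median centring), while up and down stand side by side for the members on slide 2.

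Relatives of the members were counted in the same way. Of 16 relatives tested, 7 rose and 7 fell at 2 Gy of PT, 6 and 5 at 10 Gy, 8 and 4 with Si306 at 2 Gy, and 4 and 6 with Si306 at 10 Gy. In the same order, 31.5% of all genes rose and 24.8% fell, 31.6% and 26.7%, 38.2% and 27.7%, and 33.9% and 27.1%. Median centring gave 11, 10, 14 and 11 relatives up and 1 at most down, where it called 79.5%, 78.2%, 87% and 66% of all genes. MDM4, which restrains p53 beside MDM2, fell by 0.54 at 2 Gy and 0.45 at 10 Gy of PT, and rose by 0.41 and 0.13 with Si306. BTG1, the closest relative of BTG2, fell by 0.69 and 0.47 with PT. CDKN1B, which encodes p27, gave -0.23 and 0.10, and GADD45B 0.54 and 0.02 (adjusted p over 0.05 at 10 Gy). PLK1, the mitotic kinase, fell in all 4 configurations, by 0.43, 0.74, 0.54 and 0.57, and so did PLK4, by 0.39, 0.27, 0.35 and 0.25.

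Genes that varied like CDKN1A over the 8 arrays were ranked among the 886 gene names whose configuration means spanned at least 1 on the log2 scale. BTG2 had rank 3 by Pearson correlation (0.9917), after a transcript without a gene symbol (0.9934) and LOC375010 (0.9925), and before LOC401131 (0.9735) and FAS (0.9721), a death receptor and p53 target. PPM1D had rank 7 (0.9633) and PLK3 rank 71 (0.8642), the other members with a wide enough span. The 8 arrays fall into 2 slides with different RNA, so these values describe likeness and carry no p.

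**Figure D5:**
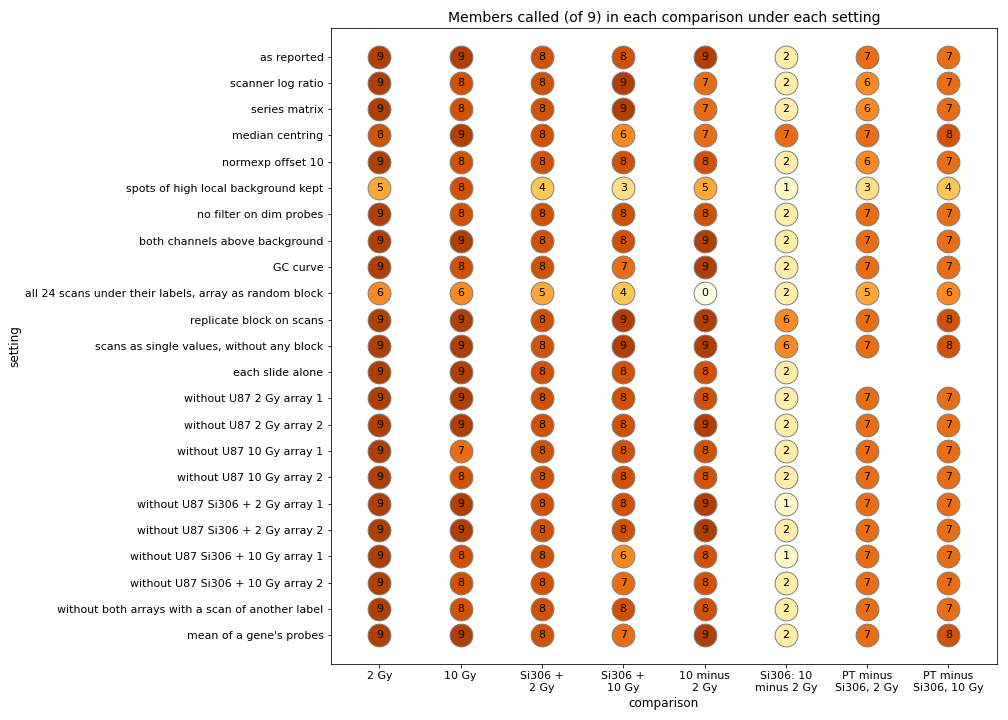
Number of the 9 members with an adjusted p under 0.05 (numbers in cells) in the 8 comparisons (horizontal axis) in the reported fit (first) and under 22 other settings (vertical axis). The comparisons between PT and Si306 have 21 of these settings, without the fit of each slide alone. Keeping the spots of high local background gives 5, 8, 4 and 3 in the 4 configurations, where the reported fit gives 9, 9, 8 and 8. Of all genes, the former called 22.3%, 19.5%, 27% and 19.1%, and the latter 56.3%, 58.3%, 65.8% and 61%.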

How the data were processed

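The members and the lists of other genes were chosen with earlier results of these data known. A member is any gene spot (control type 0) whose gene name is that of a listed gene, and every probe of it was kept. The deposited series matrix holds log10 ratios, which per the file headers are Cy5 over Cy3 after the scanner software's background subtraction and dye normalization. The deposited scanner files hold intensities, on a linear scale, which per the file headers are mean signals before background subtraction, and these were used. Their decimal commas were read as points, and the series matrix differed from the scanner files by at most 0.005. Spots marked as outliers by the software (0.431% to 0.877% per scan) were left out, as were spots with a local background over 10 times the median of the scan, a rule chosen after seeing the data. Background was corrected with normexp (offset 50), and each scan was normalised with loess. Spots were averaged by probe and scans by array. Of 41000 gene probes, 30415 were well above background in either channel on both arrays of at least 1 configuration and were tested with limma, with Benjamini-Hochberg adjustment over these probes. Prior degrees of freedom were 6.69, beside 4 residual ones. Levels are the same values after quantile normalization of mean intensities between arrays. The brightest tested probe stands for a gene. The lists reported here were p53 targets of cell death, p53 targets of repair and metabolism, relatives of the members, genes of G1, genes of G2 and mitosis, immediate early genes, genes of the ATF4 response and markers of other cells. Tools: R 4.3.3, limma 3.58.1, the package data.table (version 1.17.8), statmod 1.5.0, Python 3.11.15 and matplotlib 3.10.9.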

Additional observations from a re-analysis of the deposited data

Results flagged for a closer look

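Scans were compared within each configuration under their labels, gene by gene, in 36 groups. Outlying were 16 scan values, all from the 2 scans that lie on an array of the other dose and were left out. Chance would mark about 1 group in 20 if scans were independent, but they are repeated scans of a few arrays, so this rate does not hold. The 16 values trace to the same 2 scans and are not separate outliers. U87 10 Gy replicate 2 was low for 8 genes: BTG2 0.59 (others 1.54 to 1.74), CCNG1 -0.21 (0.09 to 0.14), CDKN1A 0.36 (1.18 to 1.21), GADD45A -0.13 (0.16 to 0.27), GDF15 0.37 (1.24 to 1.28), MDM2 -0.19 (0.07 to 0.22), PLK3 0.26 (0.64 to 0.71) and PPM1D 0.33 (1.15 to 1.26). U87 2 Gy replicate 5 was high for the same 8 genes: BTG2 1.63 (others 0.45 to 0.60), CCNG1 0.10 (-0.22 to -0.14), CDKN1A 1.19 (0.37 to 0.40), GADD45A 0.16 (-0.21 to -0.13), GDF15 1.27 (0.26 to 0.39), MDM2 0.12 (-0.27 to -0.16), PLK3 0.66 (0.18 to 0.29) and PPM1D 1.24 (0.32 to 0.44). The effect of Si306 differed between 10 and 2 Gy for PLK2 (-0.25) and PLK3 (0.25).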

How the results depend on the processing

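With 2 arrays per configuration, p-values measure the spread between arrays, not between cultures. PT alone and the combined treatment lie on different slides, no cells received Si306 without PT, and no dye was swapped. The fit was repeated under 22 other settings, 9 of which leave out arrays, where a lone array is assumed to vary like the others. For the comparisons between PT and Si306 there were 21, since the fit of each slide alone does not hold them. Of the settings, 2 were chosen after seeing the data: scans as single values without any block, and spots of high local background kept. Keeping those spots called 5 members in U87 2 Gy, 4 in U87 Si306 + 2 Gy, 3 in U87 Si306 + 10 Gy, 5 between the doses of PT, 1 between those of Si306, and 3 and 4 between PT and Si306 at 2 and 10 Gy. It turned CCNG1 in U87 Si306 + 10 Gy to 0.02, CDKN1A between the doses of Si306 to -0.01, and MDM2 between PT and Si306 at 10 Gy to 0.06. The SD between scans of an array was 0.0654 to 0.0865 with the rule (median 0.0731, 24 pairs), 0.0415 to 0.203 without it (median 0.072), and 0.215 to 0.294 by the scanner's log ratio. Median centring turned GADD45A to 0.47, CCNG1 to 0.42 and MDM2 to 0.12 in U87 2 Gy, PLK3 to 0.31, GADD45A to 0.70 and PPM1D to 0.42 in U87 Si306 + 2 Gy, and PLK3 to 0.06, GADD45A to 0.28, CCNG1 to 0.36 and PPM1D to 0.16 in U87 Si306 + 10 Gy. Between the doses of Si306 it called 7 members and 64.7% of all genes. There it turned PLK3 to -0.26, GADD45A to -0.42, CDKN1A to -0.37 and PPM1D to -0.25. Between PT and Si306 it turned MDM2 to 0.01 at 2 Gy and 0.40 at 10 Gy. With all 24 scans under their labels and the array as a random block, 2 changes that cannot be told apart, CCNG1 was 0.00 and MDM2 -0.02 in U87 10 Gy, GADD45A was 0.12 between PT and Si306 at 2 Gy, and 5, 4 and 0 members were called in U87 Si306 + 2 Gy, U87 Si306 + 10 Gy and between the doses of PT, the last with a lowest adjusted p of 0.514 (limma). The scanner log ratio and the series matrix each gave -0.02 for CCNG1 in U87 Si306 + 2 Gy, and 0.02 for GADD45A and -0.12 for BTG2 between PT and Si306 at 2 Gy. A GC curve gave 0.00 for PLK2 and GADD45A there, and the mean of a gene's probes gave 0.12 for MDM2 at 10 Gy. Replicates of equal number share only a number (8 of 22 scans correlated best within it). The replicate block and the single values each called 6 members between the doses of Si306, where 52.3% and 52.2% of all genes were called. Both fits take the scans of an array as separate values. Between the doses of Si306, leave-one-out fits gave -0.02 to 0.03 for GADD45A (-0.02 without array 1 of U87 Si306 + 2 Gy). For CDKN1A they gave 0.00 to 0.02 (0.00 and negative without array 2 of U87 Si306 + 2 Gy or array 1 of U87 Si306 + 10 Gy). Between PT and Si306 at 2 Gy they gave -0.04 to 0.02 for GADD45A (0.02 without array 1 of U87 2 Gy, 0.01 without array 2 of U87 Si306 + 2 Gy) and -0.05 to 0.03 for PLK2 (0.03 without array 2 of U87 2 Gy, or without both arrays that hold a scan of another label). At 10 Gy they gave -0.05 to 0.02 for MDM2 (0.02 without array 2 of U87 10 Gy, or without both).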
